A study of Mus musculus with 7 samples.

Results

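Noncanonical Wnt ligands, their receptors and the Dishevelled proteins were followed at the RNA level in mouse embryos that lack SLMAP3, a tail-anchored membrane protein. The genes are Dvl1, Dvl2, Dvl3, Wnt5a, Wnt5b, Wnt11, Ror1, Ror2, Ptk7 and Ryk, chosen by symbol, and all 10 were found among the 25461 genes of the deposited table. RNA-seq had been performed on B6C3F1 embryos taken whole at E11.5, 3 of them SLMAP3 knockout (KO) and 4 wild type (WT), each made into a library of its own after the tail was taken for genotyping. The KO allele goes back to a global, Cre-driven excision of a floxed Slmap exon that removes the SLMAP3 isoform and leaves the shorter SLMAP isoforms, and the embryos came from crosses of heterozygous mice. Values are FPKM, read fragments divided by transcript length and by library depth, as the authors computed them for each gene and embryo, so levels can be compared between genes. In such bulk RNA, fewer cells of a type and less RNA per cell cannot be told apart.

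In this branch of Wnt signaling, ligands such as WNT5A and WNT11 act through Frizzled receptors together with the receptor tyrosine kinase family members ROR1, ROR2, PTK7 and RYK. Dishevelled proteins are recruited to the membrane and pass the signal to small GTPases, ROCK and JNK, which act on the actin cytoskeleton. This planar cell polarity (PCP) signaling directs convergent extension, the movement by which the neural plate narrows and lengthens before the neural tube closes. The study examined Dishevelled proteins in embryonic brains, and the question put to the RNA was whether transcripts of the Dishevelled genes, the ligands and the receptors differed between KO and WT embryos.

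The targeted gene was lower in every KO embryo. Slmap was at 19.6, 16.01 and 16.6 FPKM in KO embryos KOAC8-6, KOAC10-5 and KOAC10-8, against 31.2, 23.9, 29.1 and 22.8 FPKM in WT embryos KOAC8-1, KOAC10-7, KOAC9-1 and KOAC10-2. The genotypes did not overlap (exact permutation test over the 35 splits of the embryos, two-sided, p = 0.0286, and no smaller p can arise from 3 against 4 embryos), and the KO mean was 65.1% of the WT mean, in a value that also counts the remaining isoforms. The depth was estimated at 54400000 to 81900000 counts on genes per embryo. Transcripts of hepatoblasts, the liver precursor cells, summed to 2.59 to 8.18 FPKM over 6 markers in KOAC10-5, KOAC10-7 and KOAC10-2 and to 362 to 636 FPKM in the other embryos, so those 3 embryos stood apart, 1 of them KO and 2 WT. Marker sums of skeletal muscle and erythroid cells differed between the genotypes. The 8 skeletal muscle markers summed to 225 to 284 FPKM in KO embryos against 388 to 527 FPKM in WT embryos, and the 7 erythroid markers to 14181 to 18986 FPKM in KO embryos against 20507 to 25647 FPKM in WT embryos, both without overlap. The 7 neural progenitor markers summed to 661 to 740 FPKM in KO embryos against 598 to 683 FPKM in WT embryos, with overlap. The 7 heart markers summed to 385 to 505 FPKM in KO embryos against 338 to 409 FPKM in WT embryos, also with overlap. Limb and facial mesenchyme is a main site of these ligands and receptors. Its 8 markers summed to 309 to 323 FPKM in KO embryos against 303 to 324 FPKM in WT embryos, with overlapping ranges. The 7 neuronal markers also overlapped, at 612 to 749 FPKM in KO embryos against 629 to 773 FPKM in WT embryos. Of the 4 trophoblast markers, 3 were in the table, and none of them exceeded 0.841 FPKM in an embryo. The part of these tissues in the results below was not tested.

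All 10 genes were well measured in these embryos. Every one had a mean of at least 1 FPKM, the minimum for testing, which 16095 genes reached. The mean normalized counts in the authors' table ran from 989 for Wnt5b to 14156 for Ptk7. Ptk7, a catalytically inactive receptor of the PCP pathway, stood first with a mean of 52.8 FPKM over the 7 embryos, a level above 84.5% of the genes tested. It was followed by Ryk at 43.4, Dvl3 at 42.1, Wnt5a at 39.4, Dvl2 at 33.0, Dvl1 at 26.2, Ror2 at 13.3, Wnt11 at 11.01, Wnt5b at 7.35 and Ror1 at 6.26 FPKM. The median gene tested had a mean of 12.9 FPKM, so Ror1, Wnt5b and Wnt11 lay below it. Of neighbours in this order, Ptk7 and Ryk, Wnt5a and Dvl2, and Dvl1 and Ror2 did not overlap across the 7 embryos, and the ranges of the other neighbouring genes overlapped. The genes varied little between embryos. Their median coefficient of variation (SD over mean) was 6.17%, against 10.4% for all genes tested, with Ryk at 2.30% as the most even and Wnt11 at 28.5% as the most variable.

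**Figure D1:**
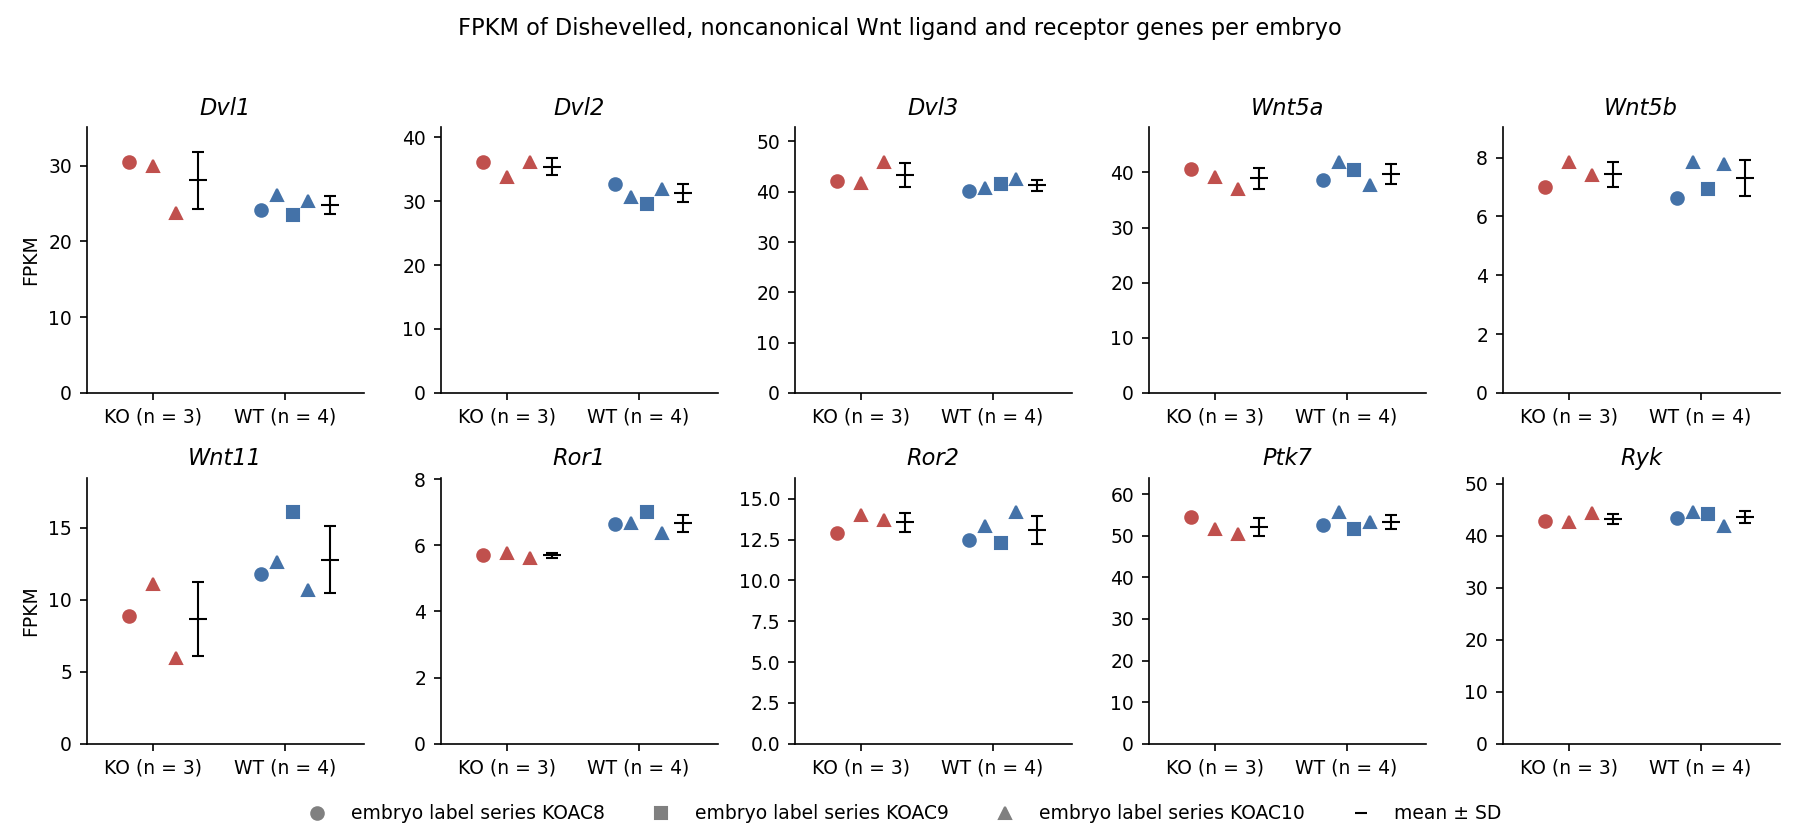
FPKM (vertical axes, from 0) of the 10 genes in the 3 KO embryos (red) and the 4 WT embryos (blue). Symbols give the label series of each embryo, and black marks give the mean ± SD of each genotype. All KO points lie above the WT points for Dvl2 and below them for Ror1, and Wnt11 is the most spread gene.

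No gene of the set changed at an adjusted p under 0.05 when the genotypes were tested with limma on log2(FPKM + 1) and p-values adjusted by Benjamini-Hochberg over all genes tested. The count was 0 of 10, where 0.0373% of all genes tested passed. Slmap, the targeted gene, did not pass either, with a log2 fold change of -0.59 ± 0.13 (SE) and an adjusted limma p of 0.278. At an unadjusted p under 0.05, where 11.5% of all genes passed in either direction, there were 3 of 10 genes. One of these, Dvl2, was higher in KO embryos, a direction in which 5.27% of all genes passed. The other 2, Wnt11 and Ror1, were lower, as were 6.19% of all genes. KO and WT embryos did not overlap for Dvl2 and Ror1, 2 of the 10, against 11.6% of all genes tested. These counts rest on 10 genes and were not tested against the background. The log2 fold changes of the 10 genes were positive for 5 and negative for 5, with a median of 0.0075 where the median of all genes was 0.0105. All but Wnt11, 9 of 10, lay within 0.2 of 0 on the log2 scale, as did 79.5% of all genes.

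**Figure D2:**
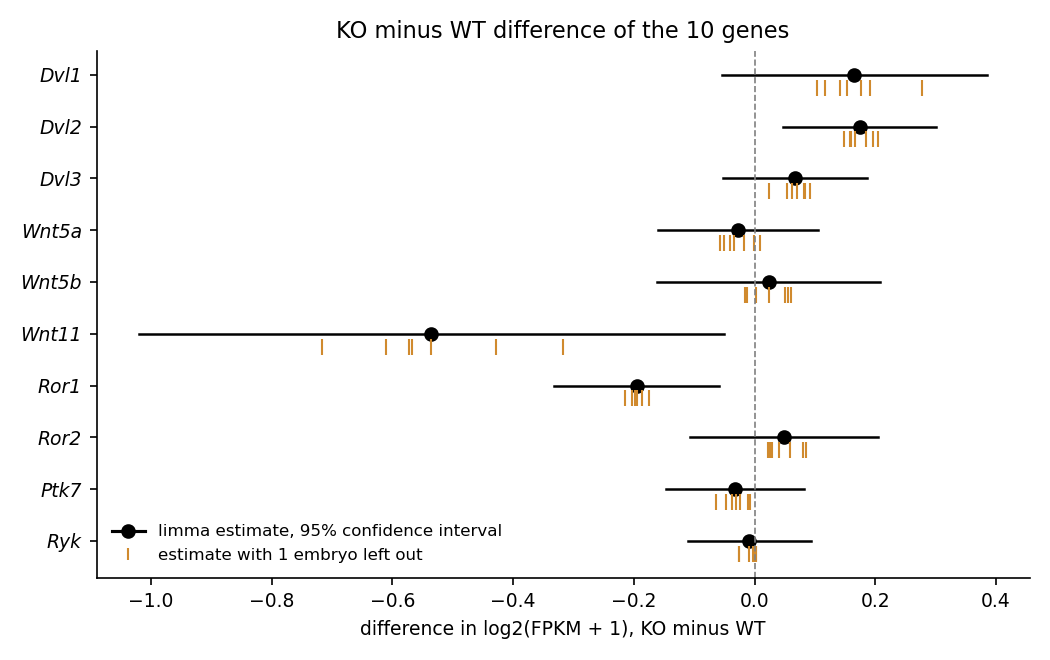
KO minus WT difference in log2(FPKM + 1) for each gene (horizontal axis), as the limma estimate with its 95% confidence interval (black) and as the estimates with 1 of the 7 embryos left out (orange). Intervals of Dvl2, Wnt11 and Ror1 lie to one side of 0, and the 7 others cross it.

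The promoters of the 3 genes whose confidence intervals did not include 0 are shown because their transcripts differed most clearly between the genotypes, and because the SLMAP-associated Hippo pathway acts on TEAD factors and the canonical Wnt pathway on TCF/LEF factors. Each is the 250 bases before a RefSeq transcription start (GRCm38.p6, plus strand), with capitals for a TEAD motif (GGAATG, or CATTCC on the other strand) or a TCF/LEF motif (ATCAAAG, or CTTTGAT). Dvl2 is chr11:70000342-70000591, Wnt11 is chr7:98834862-98835111 and Ror1 is chr4:100095541-100095790.
Dvl2: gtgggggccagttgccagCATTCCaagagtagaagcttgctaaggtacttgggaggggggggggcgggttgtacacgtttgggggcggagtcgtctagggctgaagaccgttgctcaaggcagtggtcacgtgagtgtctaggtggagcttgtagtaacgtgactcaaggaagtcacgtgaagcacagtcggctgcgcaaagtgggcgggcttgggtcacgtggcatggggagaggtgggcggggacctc
Wnt11: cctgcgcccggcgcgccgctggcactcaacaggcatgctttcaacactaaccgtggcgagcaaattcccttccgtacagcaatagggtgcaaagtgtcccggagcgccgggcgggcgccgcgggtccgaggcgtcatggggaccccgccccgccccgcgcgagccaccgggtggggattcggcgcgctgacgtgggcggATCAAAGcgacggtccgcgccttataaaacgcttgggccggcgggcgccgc
Ror1: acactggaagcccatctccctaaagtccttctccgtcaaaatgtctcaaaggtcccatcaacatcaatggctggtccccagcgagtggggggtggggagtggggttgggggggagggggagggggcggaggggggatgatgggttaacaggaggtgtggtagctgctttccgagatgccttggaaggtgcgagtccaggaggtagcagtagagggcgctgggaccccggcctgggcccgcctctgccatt
A TEAD motif lies 232 bases before the start of Dvl2, and a TCF/LEF motif 51 bases before the start of Wnt11. Ror1 holds no match to either set of letters in this window. The Wnt11 window holds 37 CpG dinucleotides, that of Dvl2 13 and that of Ror1 8, where the median promoter has 6. RefSeq promoters were matched for 9 of the 10 genes, with 12 windows, and Wnt5a had no entry. The TEAD motif was found in 2 of the 12 windows, those of Dvl2 and Ptk7, against 12.6% of the 32851 promoters in the table. The TCF/LEF motif was found in 2 of the 12, one of Wnt11 and one of Wnt5b, against 3.21% of all promoters. A match describes letters and not binding, and the part of TEAD or TCF/LEF factors in these differences was not tested.

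Among the Dishevelled genes, Dvl2 had the clearest difference. It was at 36.1, 33.8 and 36.1 FPKM in KOAC8-6, KOAC10-5 and KOAC10-8, and at 32.7, 30.7, 29.5 and 32.0 FPKM in KOAC8-1, KOAC10-7, KOAC9-1 and KOAC10-2. Every KO embryo was above every WT embryo for this gene. The means were 35.3 ± 1.34 FPKM in KO (SD, n = 3) and 31.2 ± 1.42 FPKM in WT embryos (SD, n = 4). KO embryos thus had 113% of the WT level. The exact permutation test gave p = 0.0286 (two-sided, unadjusted), the smallest value that 3 against 4 embryos allow. The log2 fold change was 0.17 ± 0.05 (SE) with a 95% confidence interval of 0.05 to 0.30, and the limma p was 0.0140 before and 0.348 after adjustment. Dvl2 lies at chr11:70000595-70012301 on the plus strand (GRCm38) and overlaps Acadvl, a mitochondrial fatty acid oxidation gene on the opposite strand. Of the 50-base stretches of Dvl2 transcripts, 12.2% also occur in Acadvl transcripts, on either strand, and the library kit does not mark strand. Acadvl was at 26.3 ± 0.719 FPKM in KO embryos against 29.7 ± 2.39 FPKM in WT embryos, the opposite order to Dvl2. The sum of both genes was 61.7 ± 1.73 FPKM in KO embryos against 60.9 ± 3.01 FPKM in WT embryos, with overlapping ranges. FPKM is divided by the transcript length of each gene, so this sum does not follow the number of reads. How reads were divided between Dvl2 and Acadvl was not tested. KO embryos also had 6 of 7 neural progenitor markers higher at an unadjusted limma p under 0.05, and the part of that tissue in the Dvl2 values was not tested.

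For Dvl1 and Dvl3 the genotypes overlapped. Dvl1 (chr4:155847402-155859303, plus strand) was at 30.5, 29.9 and 23.7 FPKM in KOAC8-6, KOAC10-5 and KOAC10-8, and at 24.1, 26.1, 23.5 and 25.3 FPKM in KOAC8-1, KOAC10-7, KOAC9-1 and KOAC10-2. The first 2 KO embryos were above all WT embryos, whereas KOAC10-8 was within the WT range. The means were 28.0 ± 3.75 FPKM in KO embryos against 24.8 ± 1.19 FPKM in WT embryos, with a log2 fold change of 0.17 ± 0.09 (SE), a 95% confidence interval of -0.05 to 0.39 and an adjusted limma p of 0.534. Without KOAC10-8 the log2 fold change of Dvl1 was 0.28 and its unadjusted limma p 0.00326. Dvl3 (chr16:20516982-20534010, plus strand), the most abundant of the 3 Dishevelled transcripts, was at 42.2, 41.7 and 46.0 FPKM in the KO group, against 40.1, 40.8, 41.6 and 42.6 FPKM in the WT group, with embryos in the same order. Only KOAC10-8, the embryo with the lowest Dvl1 of the KO group, was above all WT embryos. Dvl3 averaged 43.3 ± 2.31 FPKM in KO embryos against 41.3 ± 1.05 FPKM in WT embryos, which gave 0.07 ± 0.05 (SE) on the log2 scale, with a 95% confidence interval of -0.05 to 0.19 and an adjusted limma p of 0.628. Without KOAC10-8 the log2 fold change of Dvl3 was 0.02.

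Taken as a family, Dishevelled transcripts summed to 109, 105 and 106 FPKM in KOAC8-6, KOAC10-5 and KOAC10-8, and to 96.99, 97.6, 94.6 and 99.8 FPKM in KOAC8-1, KOAC10-7, KOAC9-1 and KOAC10-2. The sums of KO embryos (107 ± 1.89 FPKM) were all above those of WT embryos (97.3 ± 2.16 FPKM). The sum is a description with no test of its own, and it contains the Dvl2 value whose overlap with Acadvl is given above. The composition of the family overlapped between the genotypes for every gene. Dvl3 made up 38.8% to 44.0% of the sum over the 7 embryos, Dvl2 31.2% to 34.1% and Dvl1 22.4% to 28.4%. The Dvl2 to Dvl3 ratio does not depend on scaling, but it too contains the Dvl2 value with its Acadvl overlap. It was 0.817 ± 0.0358 in KO and 0.757 ± 0.0439 in WT embryos, a log2 difference of 0.11. The exact permutation test (two-sided) gave p = 0.143, and 0.214 after Benjamini-Hochberg over the 3 ratios tested here.

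**Figure D3:**
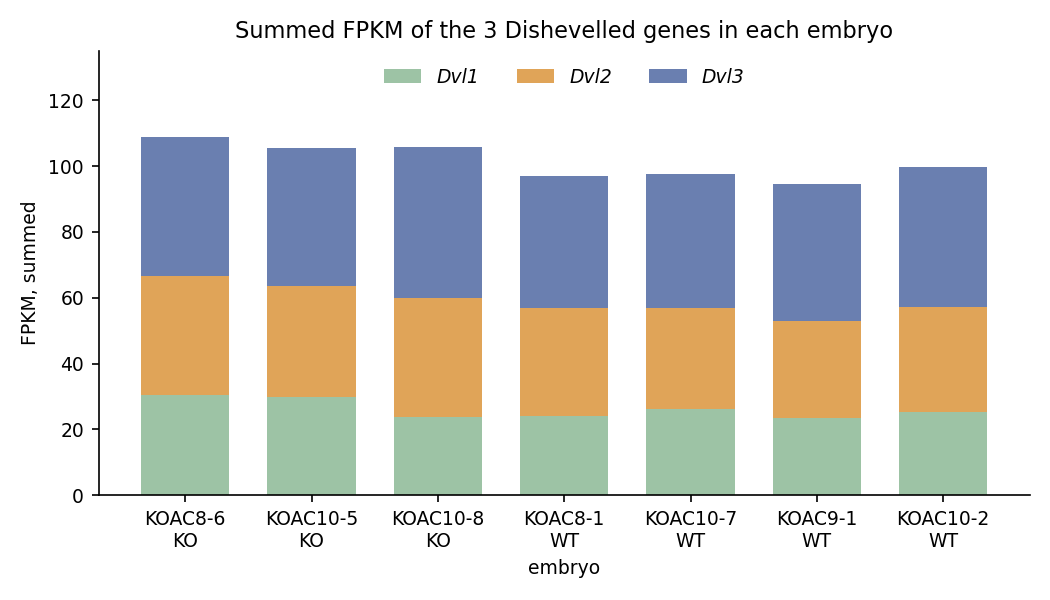
Summed FPKM of Dvl1, Dvl2 and Dvl3 (vertical axis, from 0) in each embryo (horizontal axis), with the share of each gene as a coloured segment. The 3 KO bars reach 105 to 109 FPKM and the 4 WT bars 94.6 to 99.8 FPKM.

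Of the ligands, Wnt11 was lower in KO embryos on average and varied most. Wnt11, a noncanonical ligand of the heart, kidney and limb, was at 8.90, 11.1 and 5.95 FPKM in KOAC8-6, KOAC10-5 and KOAC10-8, and at 11.8, 12.6, 16.1 and 10.66 FPKM in KOAC8-1, KOAC10-7, KOAC9-1 and KOAC10-2. KOAC10-8 had the lowest value and KOAC9-1 the highest, and the genotypes overlapped because the KO embryo KOAC10-5 exceeded the WT embryo KOAC10-2. The KO mean of 8.65 ± 2.59 FPKM was 67.7% of the WT mean of 12.8 ± 2.34 FPKM (exact permutation test, two-sided, p = 0.0571). The log2 fold change was -0.54 ± 0.21 (SE) with a 95% confidence interval of -1.02 to -0.05, and the limma p was 0.0346 before and 0.405 after adjustment. Without KOAC10-8 the log2 fold change was -0.32, and without the 3 embryos low in hepatoblast transcripts it was -0.83. Wnt11 lies at chr7:98835112-98855195 on the plus strand and shares 7.46% of its 50-base stretches with Gm8398, an overlapping gene on the opposite strand that has no row in the table. KO embryos also had the lower skeletal muscle sums given above, with all 8 muscle markers lower at an unadjusted limma p under 0.05. Of the 7 erythroid markers, 2 were lower at that threshold, Hba-a1 (log2 fold change -0.86) and Hbb-y (-0.57), which had no overlap between the genotypes, whereas Hbb-bh1 was at 0.51. The 7 heart markers had positive log2 fold changes throughout, opposite to Wnt11, and 3 of them passed an unadjusted p under 0.05. The part of those tissues in the Wnt11 values was not tested.

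Wnt5a and Wnt5b, close paralogs of which Wnt5a drives limb, facial and axial outgrowth, were at like levels in KO and WT embryos. Wnt5a (chr14:28504750-28527448, plus strand) was at 40.6, 39.2 and 36.9 FPKM in KOAC8-6, KOAC10-5 and KOAC10-8, and at 38.6, 41.9, 40.5 and 37.8 FPKM in KOAC8-1, KOAC10-7, KOAC9-1 and KOAC10-2. The groups were interleaved, with 38.9 ± 1.85 FPKM in KO embryos against 39.7 ± 1.86 FPKM in WT embryos. The log2 fold change of -0.03 ± 0.06 (SE) had a 95% confidence interval of -0.16 to 0.11 (limma, adjusted p = 0.880). The gene is on the chromosome of the targeted locus, 1969819 bases from Slmap. Wnt5b (chr6:119432531-119544347, minus strand) was at 7.00, 7.85 and 7.42 FPKM in the KO group, against 6.63, 7.86, 6.94 and 7.77 FPKM in the WT group, with embryos in the same order. KO embryos lay inside the WT range, and the log2 fold change was 0.02 ± 0.08 (SE) with a 95% confidence interval of -0.16 to 0.21 (limma, adjusted p = 0.930). Wnt5a made up 63.7% to 73.4% of the summed FPKM of the 3 ligands, Wnt11 11.8% to 25.3% and Wnt5b 10.9% to 14.8%. The ratio of Wnt5a to Wnt5b was 5.26 ± 0.468 in KO and 5.46 ± 0.460 in WT embryos (log2 difference -0.05, exact permutation test, two-sided, p = 0.657, Benjamini-Hochberg 0.657).

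Among the receptors, Ror1 was lower in all KO embryos. Ror1, a receptor for WNT5A and the least abundant of the 10 transcripts, was at 5.71, 5.77 and 5.62 FPKM in KOAC8-6, KOAC10-5 and KOAC10-8, and at 6.63, 6.69, 7.00 and 6.38 FPKM in KOAC8-1, KOAC10-7, KOAC9-1 and KOAC10-2. The 3 KO embryos were tightly grouped below the lowest WT embryo. The KO mean of 5.70 ± 0.0750 FPKM was 85.4% of the WT mean of 6.67 ± 0.253 FPKM. The exact permutation test gave p = 0.0286 (two-sided, unadjusted), again the smallest possible value. The log2 fold change was -0.20 ± 0.06 (SE) with a 95% confidence interval of -0.33 to -0.06, and the limma p was 0.0115 before and 0.344 after adjustment. Ror1 lies at chr4:100095791-100444765 on the plus strand, shares no 50-base stretch with another gene, and had an estimated 1833 counts in the embryo where it was lowest. The KO embryos, all lower in Ror1, also had the lower skeletal muscle and erythroid marker sums, whose part was not tested. The mesenchymal marker sums overlapped, but their 8 members went both ways, with Pdgfra at a log2 fold change of -0.29 and Prrx2 at 0.22, both at an unadjusted limma p under 0.05, and the part of mesenchyme was not tested either.

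The paralog Ror2, the main receptor of WNT5A in limb and skeletal development, did not follow Ror1. Ror2 (chr13:53109312-53286124, minus strand) was at 12.9, 14.03 and 13.7 FPKM in KOAC8-6, KOAC10-5 and KOAC10-8, and at 12.5, 13.4, 12.3 and 14.2 FPKM in KOAC8-1, KOAC10-7, KOAC9-1 and KOAC10-2. The KO values lay within the WT range, and the log2 fold change was 0.05 ± 0.07 (SE) with a 95% confidence interval of -0.11 to 0.20 (limma, adjusted p = 0.795). The share of Ror1 in the summed FPKM of both receptors was 29.1% to 30.6% in KO and 31.0% to 36.3% in WT embryos, without overlap. In the form of a ratio, Ror2 to Ror1 was 2.38 ± 0.0997 in KO and 1.97 ± 0.197 in WT embryos, again without overlap, and the log2 difference of 0.28 did not pass the test (exact permutation test, two-sided, p = 0.0571, Benjamini-Hochberg 0.171 over the 3 ratios). The sum of both receptors was 19.3 ± 0.585 FPKM in KO embryos against 19.8 ± 0.664 FPKM in WT embryos, with overlapping ranges.

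Ptk7 and Ryk, the most abundant receptors of the set, were at like levels in both genotypes. Ptk7 (chr17:46564471-46629504, minus strand) was at 54.5, 51.6 and 50.3 FPKM in KOAC8-6, KOAC10-5 and KOAC10-8, and at 52.6, 55.6, 51.6 and 53.4 FPKM in KOAC8-1, KOAC10-7, KOAC9-1 and KOAC10-2. The embryos of both genotypes were interleaved, and the log2 fold change was -0.03 ± 0.05 (SE) with a 95% confidence interval of -0.15 to 0.08 (limma, adjusted p = 0.825). Ryk (chr9:102834917-102908305, plus strand), an atypical kinase receptor that binds Wnt ligands, was at 42.9, 42.6 and 44.3 FPKM in the KO group, against 43.4, 44.5, 44.3 and 41.9 FPKM in the WT group, with embryos in the same order. The KO range lay within the WT range. Its log2 fold change was -0.01 ± 0.04 (SE), and the 95% confidence interval of -0.11 to 0.09 was the narrowest of the 10 genes (limma, adjusted p = 0.955).

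The embryo labels carry the codes KOAC8, KOAC9 and KOAC10, whose meaning is not stated, and KOAC9 holds a WT embryo only. Within KOAC8, with 1 embryo of each genotype, the differences in log2(FPKM + 1) were 0.14 for Dvl2, -0.37 for Wnt11 and -0.19 for Ror1. Within KOAC10, with 2 embryos of each genotype, they were 0.15, -0.46 and -0.17 in the same order. The 3 genes had the sign of the pooled difference in both series, which for Dvl2 and Ror1 follows from the lack of overlap between the genotypes. Dvl1 differed by 0.33 within KOAC8 and by 0.05 within KOAC10. With KOAC10 alone the unadjusted limma p was 0.117 for Dvl2, 0.195 for Wnt11 and 0.140 for Ror1, so none of the 3 passed. With the label series as a block, Wnt11 was at a log2 fold change of -0.43 with an unadjusted limma p of 0.109, and no longer passed, whereas Dvl2 (0.15, p 0.0352) and Ror1 (-0.18, p 0.0366) did. As KOAC9 holds no KO embryo, these log2 fold changes are the same as without KOAC9-1, the embryo with the highest Wnt11.

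Across the 7 embryos, Dvl2 and Ror1 ran in opposite directions (Pearson's r = -0.94 on log2(FPKM + 1)), as did Dvl2 and Wnt11 (r = -0.88) and Dvl3 and Wnt11 (r = -0.82). Wnt11 and Ror1 ran together (r = 0.84), as did Wnt5b and Ror2 (r = 0.87), neither of which passed an unadjusted p of 0.05 between the genotypes. These are descriptions of 7 embryos that share genotype and tissue composition, out of 45 pairs. For the most abundant gene of each role, the closest patterns among the genes tested were H1fx (r = 0.99), Hmg20b (0.99) and 6530402F18Rik (0.99) for Dvl3, Snora41 (0.98), AI504432 (0.98) and Bbof1 (0.98) for Wnt5a, and Gm10409 (0.99), Ankrd12 (0.97) and Gm42556 (0.97) for Ptk7. An r of at least 0.9 was reached by 244 genes with Dvl3, 21 with Wnt5a and 25 with Ptk7.

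The rest of the pathway was read from 68 genes in 7 lists, of which 67 were tested, since Sfrp5 had a mean of 0.848 FPKM. No gene among them passed an adjusted limma p of 0.05. At an unadjusted p under 0.05 there were 2 higher in KO embryos and 0 lower, where 5.27% and 6.19% of all genes tested passed. There were 30 positive and 37 negative log2 fold changes with a median of -0.01, where 53.1% of all genes were positive. Cxxc4, an inhibitor that binds Dishevelled, was at 13.1, 12.8 and 13.5 FPKM in KOAC8-6, KOAC10-5 and KOAC10-8 and at 11.6, 11.4, 11.2 and 11.8 FPKM in KOAC8-1, KOAC10-7, KOAC9-1 and KOAC10-2. Every KO embryo was above the WT embryos, with a log2 fold change of 0.18 ± 0.05 (SE) and a limma p of 0.00928 before and 0.318 after adjustment. Ccdc88c, which encodes the Dishevelled-binding protein DAPLE, was at 13.4, 11.3 and 12.9 FPKM in the KO and 10.98, 10.4, 10.3 and 11.6 FPKM in the WT group, with overlap (log2 fold change 0.19 ± 0.08 (SE), limma p 0.0410 before and 0.421 after adjustment).

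By role, the 15 Dishevelled-binding and regulating genes had 11 positive and 4 negative log2 fold changes with a median of 0.06, to be read, as the counts that follow, beside the 53.1% of all genes that were positive. The 9 core PCP genes had 5 positive and 4 negative values with a median of 0.12, from -0.34 for Vangl1 to 0.23 for Celsr2. The 10 Frizzled receptors, which bind the ligands together with the receptors above, had 3 positive and 7 negative values with a median of -0.03. The 13 cytoskeletal and kinase effectors had 5 positive and 8 negative values with a median of -0.02, among them Rock2 at 0.13 ± 0.06 (SE) and Cfl1, encoding cofilin, at -0.01 ± 0.08 (SE). The 11 genes of the calcium branch had 3 positive and 8 negative values with a median of -0.14. The 4 genes of Wnt secretion and proteoglycan co-receptors had 1 positive and 3 negative values, and the 5 extracellular modulators tested had 2 and 3. KO and WT embryos did not overlap for 5 of the 67 genes, namely Prickle1, Cxxc4, Ankrd6, Ppp3cb and Znrf3, against the 11.6% of all genes given above.

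**Figure D4:**
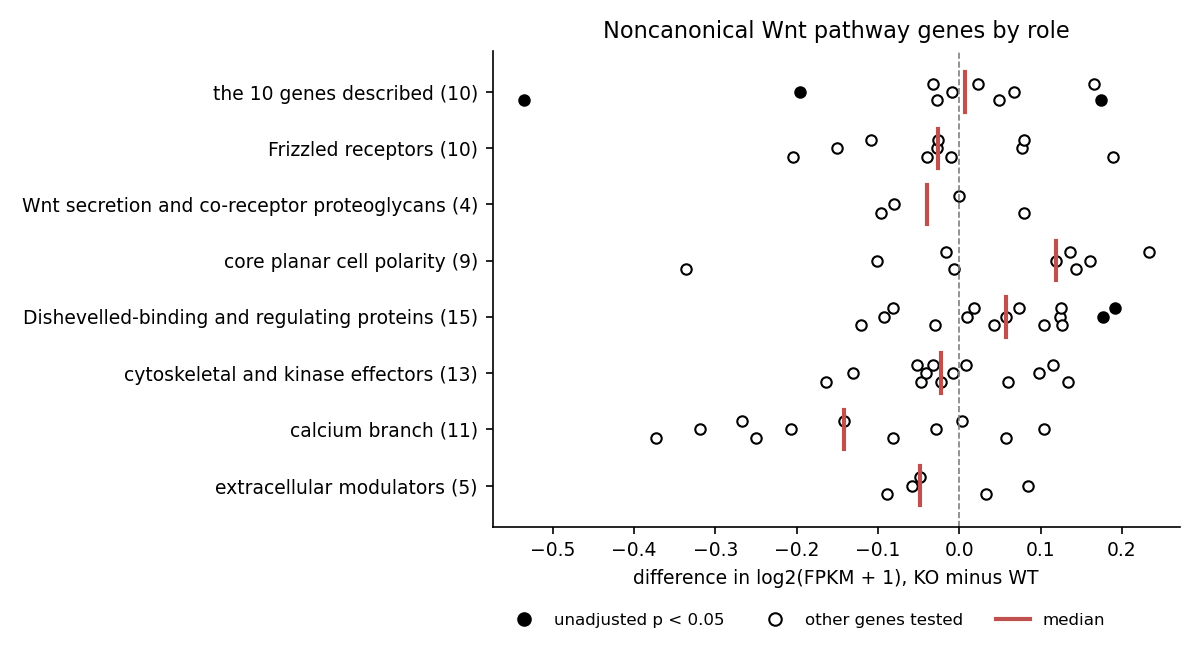
KO minus WT difference in log2(FPKM + 1) (horizontal axis) of the 10 genes described and of the 67 other pathway genes tested, by role, with the number of genes in parentheses. Filled points have an unadjusted limma p under 0.05 (Dvl2, Wnt11, Ror1, Cxxc4 and Ccdc88c), and red bars give the median of each list, from -0.14 for the calcium branch to 0.12 for core PCP.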

How the data were processed

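Whole E11.5 embryos, 3 KO and 4 WT by the sample labels, had been sequenced from TruSeq RNA v2 libraries. FPKM, 1 value for each gene in each embryo, was computed by the authors and deposited. Salmon, DESeq2, MultiQC and the build GRCm38 are named in the submitters' processing notes without versions or roles. The mean signal per gene in the authors' deposited table, from counts divided by size factors, was used for depth, for the mean normalized counts and for the estimated counts per gene. It entered no comparison of the genotypes. That table also holds the authors' own fold changes and p-values, which were not used. Depth per embryo was estimated from the steps between low FPKM values and that mean signal, and 37.8% to 69.5% of low values lay within 0.02 of a whole count. Columns of FPKM left unmapped to an embryo numbered 0.

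Values were taken as log2(FPKM + 1) (pseudocount 1), and the 16095 genes whose mean reached 1 FPKM were tested with limma 3.58.1 in R 4.3.3 (trended eBayes, no covariate), with Benjamini-Hochberg adjustment across them. Nothing says whether embryos shared a litter, so p-values measure the spread between these embryos. On simulated data for KO against WT with 200 of 16095 genes changed, 94 were recovered where the log2 change was 0.5, beside 5 false calls, and 167 where it was 1, beside 9. Single values and the 3 ratios were compared by exact permutation. Positions and shared 50-base stretches came from GENCODE M21, and promoters from RefSeq.

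The genes and lists were chosen with earlier results of these data known. Named are the 10 genes, Slmap, pathway genes with an unadjusted p under 0.05 (up to 4 per list) and the 3 most like genes for the most abundant gene of each role. Acadvl and the pathway genes named by range, by non-overlap or as effectors were chosen after their values were seen. Alternatives were a pseudocount of 0.1, no filter, a minimum mean of 5 FPKM, median-ratio size factors, quantile normalization, label series as a block, the hepatoblast gene Afp as a covariate, KOAC10 alone, leaving out the 3 embryos low in hepatoblast transcripts, and leaving out each embryo.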

Additional observations from a re-analysis of the deposited data

How the results depend on the processing

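The count of genes past an adjusted limma p of 0.05 was 0 of 10 under all 16 alternatives, and the median log2 fold change ran from -0.01 to 0.04. Over all genes tested the count was 6, against 4 at a minimum mean of 5 FPKM, 10 with Afp as a covariate, 12 without KOAC8-1, 13 with KOAC10 alone and 17 without the 3 embryos low in hepatoblast transcripts. Signs of Dvl1, Dvl2, Dvl3, Wnt11, Ror1 and Ror2 held under all 16. Where embryos were left out, this follows for Dvl2 and Ror1 from the lack of overlap between the genotypes. No filter and the minimum mean of 5 FPKM change which genes are tested and not their log2 fold changes, so no sign could turn there. An unadjusted p under 0.05 held for Dvl2 and Ror1 under 14 of 16, failing with KOAC10 alone and without the 3 embryos. Both settings leave 2 embryos of each genotype. The log2 fold changes were 0.15 for Dvl2 and -0.17 for Ror1 with KOAC10 alone, and 0.21 and -0.23 without the 3 embryos. For Wnt11 an unadjusted p under 0.05 held under 8 of 16, with log2 fold changes from -0.83 to -0.32. For Dvl1 it was reached under 1 of 16, without KOAC10-8. Signs turned, near 0, for 4 genes. Wnt5b was at -0.0296 with KOAC10 alone, -0.0127 without KOAC10-5 and -0.0158 without KOAC8-1. Ryk was at 0.00878 with KOAC10 alone, 0.00258 without KOAC10-5 and 0.00183 without KOAC10-7. Ptk7 was at 0.00734 without the 3 embryos, and Wnt5a at 0.00890 without KOAC10-8. The causes were not tested. With 1 embryo left out, log2 ratio differences ran from 0.08 to 0.15 for Dvl2 to Dvl3, from -0.13 to -0.02 for Wnt5a to Wnt5b and from 0.23 to 0.34 for Ror2 to Ror1. The label series, as a block, ended the unadjusted call of Wnt11 and of no other gene. KOAC9 holds a WT embryo only, so the block takes KOAC9-1 out of the contrast. Its log2 fold changes were those without KOAC9-1, at -0.43 for Wnt11 in both, so these alternatives are not separate. Beyond that shared code, whose meaning is not stated, the labels pair no KO embryo with a WT embryo. At a simulated log2 fold change of 0.5, 94 of 200 genes were recovered, drawn at the spreads of all genes tested (median SE 0.09). That share does not give the recovery for Dvl2, Ror1 or Wnt11, whose SE were 0.05, 0.06 and 0.21. The differences of Dvl2 and Ror1 were smaller than 0.5, and that of Wnt11 was -0.54. Estimated counts in the lowest embryo were 597 or more for each gene, and spread between embryos was not separated from counting error.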
